A study of Mus musculus with 6 samples.

Results

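The 76 genes described here are the cadherins, protocadherins and claudins that the array's annotation names with a single symbol, out of 18194 genes measured. They comprise 21 genes with a Cdh number, 35 Pcdh genes and 20 Cldn genes, chosen by symbol and not by their values. Of the 35 protocadherins, 22 belong to the beta cluster, 1 is Pcdhgc4 of the gamma cluster, and 12 lie outside the clusters. Each gene is represented by the probe set with the highest mean over the 6 arrays, taken from 131 probe sets in all, and 33 of the 76 genes have several. A further 6 probe sets list several alpha protocadherin genes at once and were kept out of the tests.

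All RNA came from OLV2-1, a single line of mouse embryonic stem cells in which the fluorescent protein Venus was knocked in at Oct4 (Pou5f1), and every group was sorted for Venus, so each is restricted to cells with Oct4 reporter signal. The first of 3 groups is undifferentiated embryonic stem cells (ESC), labelled Oct4-Venus+ and, in the sorting protocol, also CD31+, where CD31 is the protein of Pecam1. The second, called EpiSC-like by the submitters for its likeness to epiblast stem cells, is the Oct4-Venus+/Pecam1- fraction of aggregates at day 3 of SFEBq, a serum-free floating aggregate culture that induces neural tissue. The third is the Oct4-Venus+ fraction of such aggregates at day 7, for which no Pecam1 gate is named. Each group has 2 arrays, and the labels do not say whether these came from separate cultures, so every p-value here rests on the spread between samples alone, which may be technical. ESC and day 3 aggregates were taken apart with trypsin, rested for 1 hour and stained, while day 7 aggregates were taken apart with EDTA alone, so in both day 7 comparisons time, gate and handling cannot be told apart. For EpiSC-like minus ESC, time, aggregate culture and the Pecam1 gate cannot be told apart either.

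Classical cadherins hold neighbouring cells together through calcium-dependent contacts outside the cell and through catenins inside it. E-cadherin, encoded by Cdh1, is the cadherin of epithelia and of pluripotent cells, and N-cadherin, encoded by Cdh2, is that of neural tissue and mesoderm; exchange of the first for the second accompanies gastrulation and neural plate formation in the embryo. Protocadherins are a larger relative group that adheres weakly and marks identities of cells, above all in the nervous system. Claudins form the strands of tight junctions, sealing the space between epithelial cells or, for some members, opening selective pores in that seal.

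Promoter windows of 4 genes are printed first, from the RefSeq table of assembly GRCm38.p6, because they belong to a protocadherin and a claudin that rose at day 3 (Pcdh8 and Cldn2) and to a pair of claudins with signal on every array whose differences did not pass the test (Cldn6 and Cldn7, with 1 of 2 listed promoters of Cldn7). The table gives 250 bases before and 50 after the start of transcription, and it held promoters for 36 of the 76 genes and for 6 of the 7 genes that passed the test in any comparison. Capitals mark exact matches, on either strand, to 3 short words that were picked with these sequences in view: the octamer ATGCAAAT, which POU factors such as Oct4 bind and which reads ATTTGCAT on the other strand, the E-box CAGGTG, which Snail and Zeb repressors bind and which reads CACCTG on the other strand, and the TATA box word TATAAA.
Pcdh8, chr14:79771263-79771562, minus strand: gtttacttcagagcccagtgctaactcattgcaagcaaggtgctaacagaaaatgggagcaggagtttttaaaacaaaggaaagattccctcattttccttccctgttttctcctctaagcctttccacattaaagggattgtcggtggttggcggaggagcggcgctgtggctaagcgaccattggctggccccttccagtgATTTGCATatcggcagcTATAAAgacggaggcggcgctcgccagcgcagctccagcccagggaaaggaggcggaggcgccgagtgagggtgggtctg
Cldn2, chrX:139800558-139800857, plus strand: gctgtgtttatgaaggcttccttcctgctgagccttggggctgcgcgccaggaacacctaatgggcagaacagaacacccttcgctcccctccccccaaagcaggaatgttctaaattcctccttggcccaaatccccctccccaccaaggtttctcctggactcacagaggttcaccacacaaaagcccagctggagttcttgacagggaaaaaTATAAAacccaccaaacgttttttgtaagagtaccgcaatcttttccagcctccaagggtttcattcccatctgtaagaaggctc
Cldn6, chr17:23679115-23679414, plus strand: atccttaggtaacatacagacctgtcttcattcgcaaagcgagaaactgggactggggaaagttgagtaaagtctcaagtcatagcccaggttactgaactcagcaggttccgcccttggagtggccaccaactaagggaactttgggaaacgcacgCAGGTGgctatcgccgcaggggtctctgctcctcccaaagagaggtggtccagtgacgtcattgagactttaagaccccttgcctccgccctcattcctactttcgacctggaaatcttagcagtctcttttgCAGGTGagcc
Cldn7, chr11:69965171-69965470, plus strand: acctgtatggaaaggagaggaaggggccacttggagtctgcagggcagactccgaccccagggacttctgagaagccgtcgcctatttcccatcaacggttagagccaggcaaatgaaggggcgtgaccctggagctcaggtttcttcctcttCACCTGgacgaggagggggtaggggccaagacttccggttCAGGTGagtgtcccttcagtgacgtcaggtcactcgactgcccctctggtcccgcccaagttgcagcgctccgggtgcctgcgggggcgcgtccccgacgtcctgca
The Pcdh8 window holds the octamer at position -47 from the start and TATAAA at -30, and the Cldn2 window holds TATAAA at -35. The E-box stands at -93 and 41 in the Cldn6 window and at -97 and -57 in the Cldn7 window. All 4 printed windows hold a match. The windows of Cdh10, Cldn5, Pcdh18 and Pcdh19, the other genes that passed and have a listed promoter, hold none. Over 47 promoters of the 36 genes, the octamer was found in 1, the E-box in 10 and TATAAA in 3. Among all 32851 promoters of the table, 1.74% hold the octamer, 20.2% the E-box and 13.6% TATAAA. A match is a description of the letters only, and the arrays give no measurement of binding.

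The deposited values are linear signal intensities scaled by the authors so that all arrays share one trimmed mean. Signals of different probe sets cannot be ranked against each other, so levels are compared within a gene. Summed signals of a list are given to compare arrays, and they weigh the brighter probe sets most. A gene called dim has a low signal, which is not a measure of its RNA amount against other genes. All differences below are differences of log2(signal + 16), a scale that understates the change of dim genes, and a gene passed the test at a limma adjusted p under 0.05 over all 18194 genes. Of the 76 genes, 13 had a highest group mean at or above the median of all values on the arrays: 4 cadherins, 2 protocadherins and 7 claudins. The arrays with replicate number 2 had higher hybridization controls than those with number 1 (11227 to 13512 against 5591 to 7108), so differences are also given between arrays of one number. The spiked poly-A controls were at 73.3 and 76.9 on replicate 2 of ESC and EpiSC-like cells and between 591 and 826 on the other 4 arrays, and the excess of 3' over 5' actin signal was 0.71 and 0.94 (log2) on the day 7 arrays against 0.46 to 0.58 on the others. As the arrays measured bulk RNA, fewer cells of a kind and less RNA per cell cannot be told apart.

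In EpiSC-like cells 5 of the 76 genes rose relative to ESC and none fell, or 6.58% of them: Pcdh8, Pcdh18, Cldn2, Cdh10 and Cdh11. Among all genes 1.9% passed in either direction, 1.31% higher and 0.583% lower. In day 7 cells 3 of the 76 (3.95%) rose relative to ESC and none fell, namely Cldn5, Pcdh19 and Cldn2, where 1.04% of all genes passed, 0.753% of them higher and 0.286% lower. Both comparisons use the same ESC arrays. Between day 7 and EpiSC-like cells none of the 76 passed in limma, against 7 of all genes (0.0385%, 0.022% higher and 0.0165% lower), and the lowest adjusted p was 0.0792, for Cdh10. An unadjusted p under 0.05 was reached by 13 of the 76 genes for EpiSC-like minus ESC, 10 for day 7 minus ESC and 17 for day 7 minus EpiSC-like, next to 2904, 3331 and 2564 of all 18194 genes. The median EpiSC-like minus ESC difference was 0.0056 over the 76 genes, next to 0.025 over all genes. For day 7 minus ESC these medians were 0.10 and 0.015, and for day 7 minus EpiSC-like they were 0.082 and -0.023. These counts rest on few arrays: leaving out any 1 of the 6 arrays, with the lone array of a group then assumed to vary like the others, left 0 genes in either comparison with ESC, except Pcdh8 in EpiSC-like cells without ESC replicate 1 (adjusted p 0.0469). With the replicate number as a block none of the 76 passed in any comparison (lowest adjusted p 0.0510 for EpiSC-like minus ESC and 0.0744 for day 7 minus ESC). With a pseudocount of 1 in place of 16 none of the 76, and no gene of all, passed in any comparison.

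**Figure D1:**
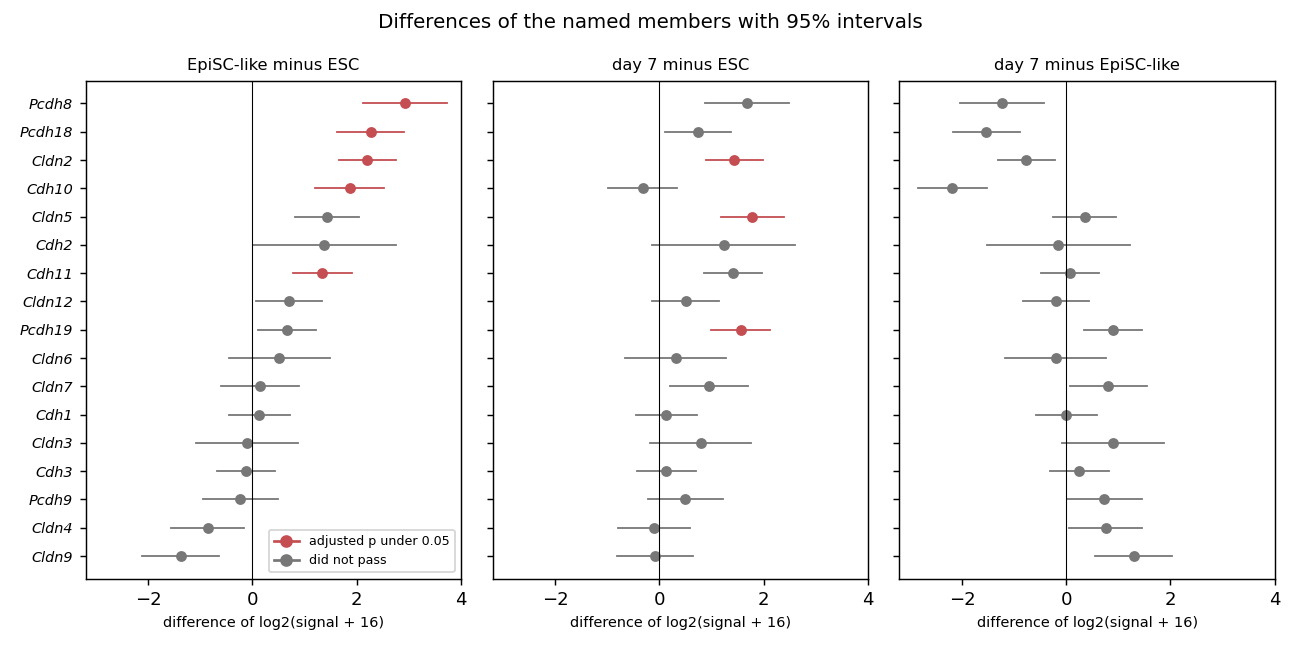
The 17 genes named by rule run down the page by their EpiSC-like minus ESC difference; each point is a difference of log2(signal + 16) and each line its 95% interval from the limma fit, with red for an adjusted p under 0.05. Red points, 5 in the first panel and 3 in the second, all lie to the right of 0, and the Cdh1 intervals include 0 in all 3 panels.

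Cdh1 had a similar signal at every stage. Its signals were 9629 and 7926 in ESC, 10071 and 9138 in EpiSC-like cells and 8725 and 10576 in day 7 cells, and the ranges of the 3 groups overlap. The difference was 0.13 ± 0.24 (SE) for EpiSC-like minus ESC (adjusted p 0.860), with a 95% interval of -0.45 to 0.72, and 0.14 ± 0.24 for day 7 minus ESC (adjusted p 0.812), with the same interval to 2 decimals. Day 7 minus EpiSC-like gave 0.0020 ± 0.24, with an interval of -0.58 to 0.58. A fall of Cdh1 larger than these lower limits is outside the intervals, while a smaller one lies within them. The intervals are not adjusted for the number of genes, and the limits are not what the adjusted test could detect. With an SE of 0.23, a day 7 minus ESC difference of 1.42 for Cdh11 did not pass in limma (adjusted p 0.0526).

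On the probe set used here, Cdh2, the neural cadherin, was higher on both EpiSC-like and both day 7 arrays than on either ESC array. Its replicates were far apart and no comparison passed. Its signals were 657 and 209 in ESC, 1365 and 728 in EpiSC-like cells, and 733 and 1099 in day 7 cells. EpiSC-like cells exceeded ESC by 1.38 ± 0.57 (adjusted p 0.306, interval 0.02 to 2.74), and day 7 cells exceeded ESC by 1.23 ± 0.57 (adjusted p 0.316, interval -0.13 to 2.59). Between arrays of one number, the day 7 difference was 0.15 for replicate 1 and 2.31 for replicate 2, so its size depended on which arrays were set against each other. The second Cdh2 probe set gave smaller differences, 0.75 for EpiSC-like minus ESC and 0.42 for day 7 minus ESC. There both groups overlapped with ESC, at 265 and 138 in ESC, 422 and 263 in EpiSC-like cells and 246 and 278 in day 7 cells. Between arrays of one number, the Cdh2 difference exceeded the Cdh1 difference by 0.97 and 1.52 for EpiSC-like minus ESC, and by 0.30 and 1.89 for day 7 minus ESC. Cdh1 and Cdh2 signal was present together in every group, and neither gene passed in any comparison.

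Of the proteins known to repress Cdh1 through E-boxes, Snai2 (Slug) rose in EpiSC-like cells, at 195 and 116 against 33.8 and 37.1 in ESC, a difference of 1.70 ± 0.29 (adjusted p 0.0481). The other 4 of the 5 listed, Snai1, Zeb1, Zeb2 and Twist1, did not pass in any comparison, and Snai2 did not pass at day 7 (0.62, adjusted p 0.326). Among all genes 1.31% passed as higher in EpiSC-like cells than in ESC. Zeb2 had the largest such difference of the 5 (2.37), at 167 and 171 in EpiSC-like cells against 29.5 and 12.2 in ESC. All of the 5 but Snai1 were higher on both EpiSC-like arrays than on both ESC arrays, as were 25% of all genes. This list was added after values of these data were seen. Snai2 also belongs to the list of neural crest and mesenchyme markers, of which it was the only 1 of 4 to pass.

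Cdh3, encoding P-cadherin of placenta and epithelia, was at 303 and 261 in ESC, 267 and 247 in EpiSC-like cells and 342 and 280 in day 7 cells. Both other groups overlapped with ESC, the day 7 arrays lay above the EpiSC-like arrays, and its differences lay between -0.12 (EpiSC-like minus ESC) and 0.25 (day 7 minus EpiSC-like). None of its adjusted p-values in limma was under 0.69.

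Cdh10, a type II cadherin known from the nervous system, was highest at day 3. It was at 74.0 and 52.0 in ESC, 285 and 255 in EpiSC-like cells, and 57.6 and 37.5 in day 7 cells. Both EpiSC-like arrays lay above all 4 others. The EpiSC-like minus ESC difference was 1.87 ± 0.28 (adjusted p 0.0352), or 4.29 times as a ratio of mean signals, and it was 1.74 and 1.99 between arrays of one number. Day 7 minus EpiSC-like was -2.19 ± 0.28 but missed the threshold (adjusted p 0.0792). That comparison did pass for Cdh10 with a pseudocount of 64 (adjusted p 0.0281) and when genes under the 25th percentile of mean signal were left out (adjusted p 0.0355). Of the other 3 probe sets of Cdh10, all dim, none gave as much as 50% of the EpiSC-like difference, and they stood at -0.02, 0.85 and 0.15.

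Cdh11, a type II cadherin of mesenchyme, passed at a very low signal. Its values were 6.34 and 1.73 in ESC, 34.0 and 34.9 in EpiSC-like cells and 38.7 and 35.8 in day 7 cells, so that the 4 arrays from aggregates lay close together and above both ESC arrays. The difference was 1.34 ± 0.23 for EpiSC-like minus ESC (adjusted p 0.0492) and 1.42 ± 0.23 for day 7 minus ESC (adjusted p 0.0526), which fall on either side of the threshold. The second Cdh11 probe set gave -0.03 and 0.34. In none of the 13 alternative settings that tested it did Cdh11 pass for EpiSC-like minus ESC, although its difference stayed above 0 in all 13. The neural crest and mesenchyme markers summed to 712 and 557 in ESC, 942 and 755 in EpiSC-like cells and 498 and 362 in day 7 cells. Most of each sum was Foxd3, at 541 and 471 in ESC, 547 and 540 in EpiSC-like cells and 305 and 247 in day 7 cells. Of the other markers, Snai2 and Twist1 were higher on both EpiSC-like arrays than on both ESC arrays, while Sox10 overlapped. The part of neural crest and mesenchyme cells in the Cdh11 values was not tested.

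The remaining 16 of the 21 cadherins did not pass in any comparison, and 12 of these stayed under a signal of 100 on every array. They include cadherins of particular tissues, such as Cdh15 of muscle, between 91.0 and 146, Cdh16 of kidney, between 7.08 and 34.6, and Cdh17 of liver and intestine, between 1.41 and 11.8. Cdh9, another neural type II cadherin, was at 243 and 105 in EpiSC-like cells against 130 and 5.73 in ESC. The lowest adjusted p among them was 0.175, for Cdh5 in day 7 minus ESC. Cdh5 (VE-cadherin of blood vessels) was at 25.05 and 56.4 in day 7 cells against 2.37 and 13.5 in ESC. Its second probe set went the other way (-0.79), at 6.49 and 4.72 in day 7 cells against 8.25 and 41.5 in ESC.

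**Figure D2:**
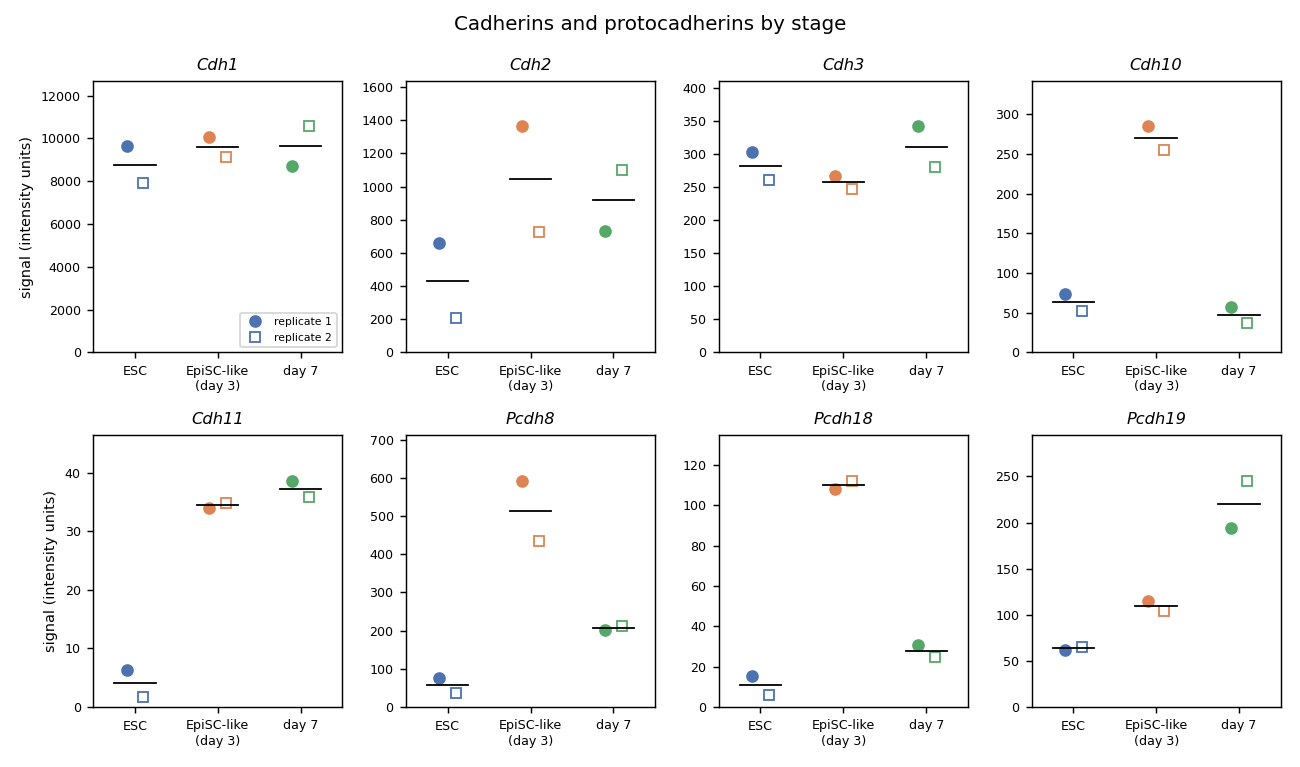
Signal intensity (linear axes from 0) of 5 cadherins and 3 protocadherins in ESC, EpiSC-like and day 7 cells, with a filled circle for replicate 1, an open square for replicate 2 and a bar at the mean of both. Cdh1 stays between 7926 and 10576 throughout, Cdh10, Pcdh8 and Pcdh18 are highest in EpiSC-like cells, and Pcdh19 is highest in day 7 cells.

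Among the protocadherins outside the clusters, Pcdh8 and Pcdh18 rose in EpiSC-like cells and Pcdh19 rose in day 7 cells. Pcdh8, known as paraxial protocadherin and expressed in the primitive streak and early mesoderm of the mouse embryo, had the largest difference of the 76 genes on the log2(signal + 16) scale for EpiSC-like minus ESC. It was at 76.1 and 35.8 in ESC, 593 and 433 in EpiSC-like cells and 202 and 211 in day 7 cells, and no 2 groups overlapped. The EpiSC-like minus ESC difference was 2.92 ± 0.34 (adjusted p 0.0227), a 9.17-fold ratio of mean signals (10.9 for Cldn2 and 10.4 for Pcdh18), and it was 2.72 and 3.12 between arrays of one number. The second probe set of Pcdh8 gave 3.46. Day 7 minus ESC was 1.69 ± 0.34 (adjusted p 0.0757) and day 7 minus EpiSC-like was -1.23 ± 0.34 (adjusted p 0.190), neither of which passed. The promoter window of Pcdh8 was the only 1 of 47 member promoters with the octamer, which 1.74% of all promoters hold.

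Pcdh18, a protocadherin of the same delta group, had the same order of groups. It was at 15.5 and 5.69 in ESC, 108 and 112 in EpiSC-like cells, and 30.7 and 24.8 in day 7 cells, again with no overlap between groups. The EpiSC-like minus ESC difference was 2.27 ± 0.27 (adjusted p 0.0227), with 1.98 and 2.56 between arrays of one number. Another probe set gave 1.80, and the dimmest, at or under 7.61 on every array, gave 0.25. Day 7 minus EpiSC-like was -1.53 ± 0.27 (adjusted p 0.0940).

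Since Pcdh8 marks mesoderm in the embryo, markers of primitive streak and mesoderm were read beside these genes. None of the 4 measured genes of that list, which was added after values were seen and whose other gene, T, was not analysed here, passed in either comparison with ESC. Their signals summed to 296 and 354 in ESC, 653 and 446 in EpiSC-like cells and 634 and 522 in day 7 cells. Eomes was at 508 and 243 in EpiSC-like cells against 179 and 159 in ESC, and Mixl1 was at 75.4 and 56.1 in EpiSC-like cells against 48.5 and 59.6 in ESC. In day 7 cells Eomes was at 493 and 346 and Mixl1 at 12.6 and 21.3. Of the 4 genes, 2 were higher and 1 lower on both day 7 arrays than on both ESC arrays (26.6% and 23.5% of all genes). No detection calls were used, so low signals of the 4 measured genes cannot be told from background. Their part in the Pcdh8 and Pcdh18 values was not tested. Of 4 neural progenitor genes, Sox1 and Fabp7 rose in both comparisons with ESC, where 1.31% and 0.753% of all genes rose, and Pax6 and Nes did not pass. Pax6 was at 171 and 184 in day 7 cells against 189 and 213 in ESC.

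Pcdh19, an X chromosome protocadherin that works together with N-cadherin in neural cells, was higher at each later stage on the probe set used here. It was at 62.1 and 65.2 in ESC, 115 and 105 in EpiSC-like cells, and 194 and 246 in day 7 cells, with no overlap between any groups. Day 7 minus ESC was 1.56 ± 0.23 (adjusted p 0.0458), with 1.43 and 1.69 between arrays of one number, a 3.46-fold ratio of mean signals. The step at day 3 alone, 0.66 ± 0.23, did not pass (adjusted p 0.234). Its 2 other probe sets gave 0.20 and 0.71 for day 7 minus ESC, each less than 50% of the difference above. For EpiSC-like minus ESC they gave -0.15 and 0.25, and on both the EpiSC-like and ESC arrays overlapped. Pcdh9, a brain protocadherin, was at 84.1 and 137 in day 7 cells against 58.4 and 86.5 in ESC, a difference of 0.50 (adjusted p 0.437).

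Of the protocadherins that did not pass, Pcdh17 came nearest, and it is named here after its values were seen. It was at 22.1 and 50.2 in day 7 cells against 1.78 and 2.78 in ESC, a difference of 1.46 ± 0.31 (adjusted p 0.0853). The other Pcdh17 probe set gave -0.20, at 5.02 and 13.0 in day 7 cells against 15.6 and 9.47 in ESC. Pcdh1, which had the lowest adjusted p of the others for EpiSC-like minus ESC (0.219), was at 2.75 and 39.2 in ESC, 54.6 and 174 in EpiSC-like cells, and 32.3 and 20.5 in day 7 cells.

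The 22 genes of the beta cluster, which encode closely related neuronal surface proteins, stayed dim, and none of them passed in any comparison. The single gamma member, Pcdhgc4, lay between 18.8 and 63.5. The median signal over the 22 genes was 13.0 and 13.6 on the ESC arrays, 8.56 and 16.3 on the EpiSC-like arrays, and 9.19 and 25.2 on the day 7 arrays. Day 7 replicate 2 stood apart: 7 of the 22 genes exceeded a signal of 40 there, against 1 gene on ESC replicate 2 and 0 on the other 4 arrays. The summed signal was 635 on that array and between 241 and 347 on the other 5. Within day 7, 18 of 22 beta genes were higher on replicate 2 than on replicate 1 (81.8%, against 54.9% of all genes), where the same count was 14 of 22 in ESC (50.5% of all genes) and 11 of 22 in EpiSC-like cells (51.5%). Because the cluster's genes resemble each other in sequence, their probe sets may share signal, and the 22 are not independent of each other.

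**Figure D3:**
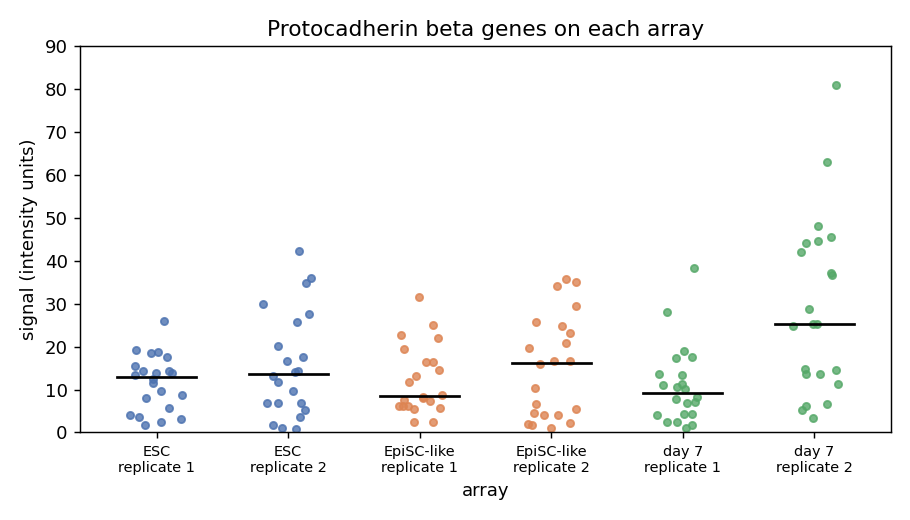
Each point is the signal intensity (linear axis from 0) of 1 of the 22 beta protocadherin genes on 1 of the 6 arrays, and each bar is the median of the 22 genes. The medians lie between 8.56 and 16.3 on 5 arrays and at 25.2 on day 7 replicate 2.

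The same day 7 array also had the highest summed signals of endoderm and trophoblast markers, though not of every gene in the lists. The 6 primitive and visceral endoderm genes summed to 238 and 171 on the ESC arrays, 274 and 209 on the EpiSC-like arrays, and 485 and 2566 on the day 7 arrays. Ttr was at 89.6 and 779 and Sox17 at 111 and 751 on the day 7 arrays, while Gata4 was at 36.8 and 55.1 there against 63.0 and 17.9 in ESC. The 4 trophoblast genes, of which Krt8 and Krt18 also mark other epithelia, summed to 1074 and 1008 in ESC, 407 and 670 in EpiSC-like cells, and 1036 and 2623 in day 7 cells. Krt18 and Krt8 gave 1651 and 911 of the 2623, and Elf5 was at 4.28 and 8.44 in day 7 cells against 13.3 and 31.0 in ESC. None of these 10 genes passed in any comparison. Both day 7 arrays lay above both ESC arrays for 5 of the 6 endoderm genes, against 26.6% of all genes. The median day 7 minus ESC difference of the 6 was 2.07, with 1.22 between arrays of replicate 1 and 3.05 between arrays of replicate 2. Of the 4 trophoblast genes, 1 was higher and 1 lower on both day 7 arrays than on both ESC arrays. The part of these 10 genes in the beta protocadherin values and in the day 7 claudin values below was not tested.

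Among the claudins, Cldn2 rose in both comparisons with ESC. Cldn2, which forms a pore for small cations in the tight junctions of leaky epithelia, was at 8.10 and 10.3 in ESC, 92.7 and 108 in EpiSC-like cells and 56.1 and 48.5 in day 7 cells. No groups overlapped. EpiSC-like minus ESC was 2.21 ± 0.23 (adjusted p 0.0176), the lowest adjusted p of any of the 76 genes, with 2.17 and 2.24 between arrays of one number. Day 7 minus ESC was 1.44 ± 0.23 (adjusted p 0.0496), with 1.58 and 1.30 between arrays of one number. The other Cldn2 probe set, between 15.1 and 52.1 on all arrays, gave 0.20 and 0.29 for these differences. With the mean of all probe sets per gene, Cldn2 passed in neither comparison.

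Cldn5, the main claudin of the blood-brain barrier endothelium, rose in day 7 cells. It was at 102 and 112 in ESC, 357 and 278 in EpiSC-like cells, and 360.4 and 460.1 in day 7 cells, and all 4 arrays from aggregates lay above both ESC arrays. Day 7 minus ESC was 1.78 ± 0.25 (adjusted p 0.0414), with 1.68 and 1.89 between arrays of one number and a 3.83-fold ratio of mean signals. EpiSC-like minus ESC was 1.43 ± 0.25 with an adjusted p of 0.0520, just past the threshold. Cldn5 has 1 probe set, so no second one bears on it. The 3 endothelial markers Kdr, Tek and Cd34 did not pass in any comparison, and their summed signal was 420 and 279 in ESC, 662 and 422 in EpiSC-like cells and 371 and 378 in day 7 cells; Cd34 was at 36.8 and 55.7 in day 7 cells against 108 and 66.9 in ESC, and Kdr was at 96.2 and 90.7 in day 7 cells against 63.99 and 52.7 in ESC. Kdr was also at 117 and 126 in EpiSC-like cells, and the part of endothelial cells in the Cldn5 values was not tested. Pecam1, an endothelial gene and the one used to gate ESC and EpiSC-like cells, was at 728 and 343 in ESC, 401 and 177 in EpiSC-like cells and 767 and 488 in day 7 cells. Its EpiSC-like and ESC arrays overlapped, and the difference of -0.87 did not pass (adjusted p 0.480), although EpiSC-like cells were gated as Pecam1- and ESC as CD31+.

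Cldn6, a claudin of embryonic epithelia and pluripotent cells, had signal on every array with no passing change. It was at 289 and 497 in ESC, 399 and 756 in EpiSC-like cells and 414 and 545 in day 7 cells. The groups overlapped in all 3 comparisons, and in each group replicate 2 was above replicate 1. EpiSC-like minus ESC was 0.52 ± 0.40 (adjusted p 0.618, interval -0.45 to 1.48), and day 7 minus ESC was 0.31 ± 0.40 (adjusted p 0.731).

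Cldn9 lies next to Cldn6 on chromosome 17 of GRCm38.p6 but its values were lowest at day 3. It was at 206 and 156 in ESC, 66.1 and 52.9 in EpiSC-like cells, and 131 and 215 in day 7 cells, so both EpiSC-like arrays lay below all 4 others. The differences were -1.38 ± 0.31 for EpiSC-like minus ESC (adjusted p 0.0861) and 1.29 ± 0.31 for day 7 minus EpiSC-like (adjusted p 0.150), and neither passed. Its second, dimmer probe set gave -0.64 and 1.36.

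Cldn4, an epithelial claudin that is a receptor of a bacterial enterotoxin, had the same order of stages. It was at 1549 and 2133 in ESC, 944 and 1045 in EpiSC-like cells, and 2023 and 1406 in day 7 cells. EpiSC-like minus ESC was -0.86 ± 0.29 (adjusted p 0.212) and day 7 minus EpiSC-like was 0.75 ± 0.29 (adjusted p 0.321). Cldn3, its neighbour on chromosome 5 and a receptor of the same toxin, was at 239 and 226 in ESC, 139 and 331 in EpiSC-like cells, and 485 and 356 in day 7 cells. Day 7 cells lay above both other groups, by 0.80 ± 0.40 over ESC (adjusted p 0.358), and all 4 Cldn3 probe sets gave day 7 minus ESC differences between 0.74 and 1.14.

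Cldn7, a claudin of simple epithelia that also sits along the lateral membrane, was at 451 and 475 in ESC, 496 and 528 in EpiSC-like cells, and 683 and 1208 in day 7 cells. Both day 7 arrays lay above all 4 others, and the higher of them was the array with the high endoderm and keratin signals. Day 7 minus ESC was 0.95 ± 0.31 (adjusted p 0.185), with 0.58 between arrays of replicate 1 and 1.32 between arrays of replicate 2. Cldn12, an atypical claudin that lacks the usual anchor to scaffold proteins, was at 1796 and 1263 in ESC, 2565 and 2352 in EpiSC-like cells, and 1971 and 2336 in day 7 cells. Its EpiSC-like minus ESC difference was 0.70 ± 0.27 (adjusted p 0.266), and its other probe set gave 0.48.

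The 12 other claudins did not pass in any comparison, and 11 of them stayed under a signal of 100 on every array; the exception, Cldn22, reached 123 on an ESC array. Over all 20 claudins the median difference was -0.14 for EpiSC-like minus ESC and -0.09 for day 7 minus ESC, and 8 of 20 were above 0 in each. For the 21 cadherins these medians were -0.07 and 0.13, and for the 35 protocadherins 0.09 and 0.21. Groups without overlap were about as frequent among the 76 genes as among all genes: 19 were higher and 15 lower on both EpiSC-like arrays than on both ESC arrays, where 25% and 19.9% of all genes were. For day 7 against ESC the counts were 22 higher and 13 lower, with 26.6% and 23.5% over all genes. For day 7 against EpiSC-like they were 21 and 16, with 21.3% and 24.5%.

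**Figure D4:**
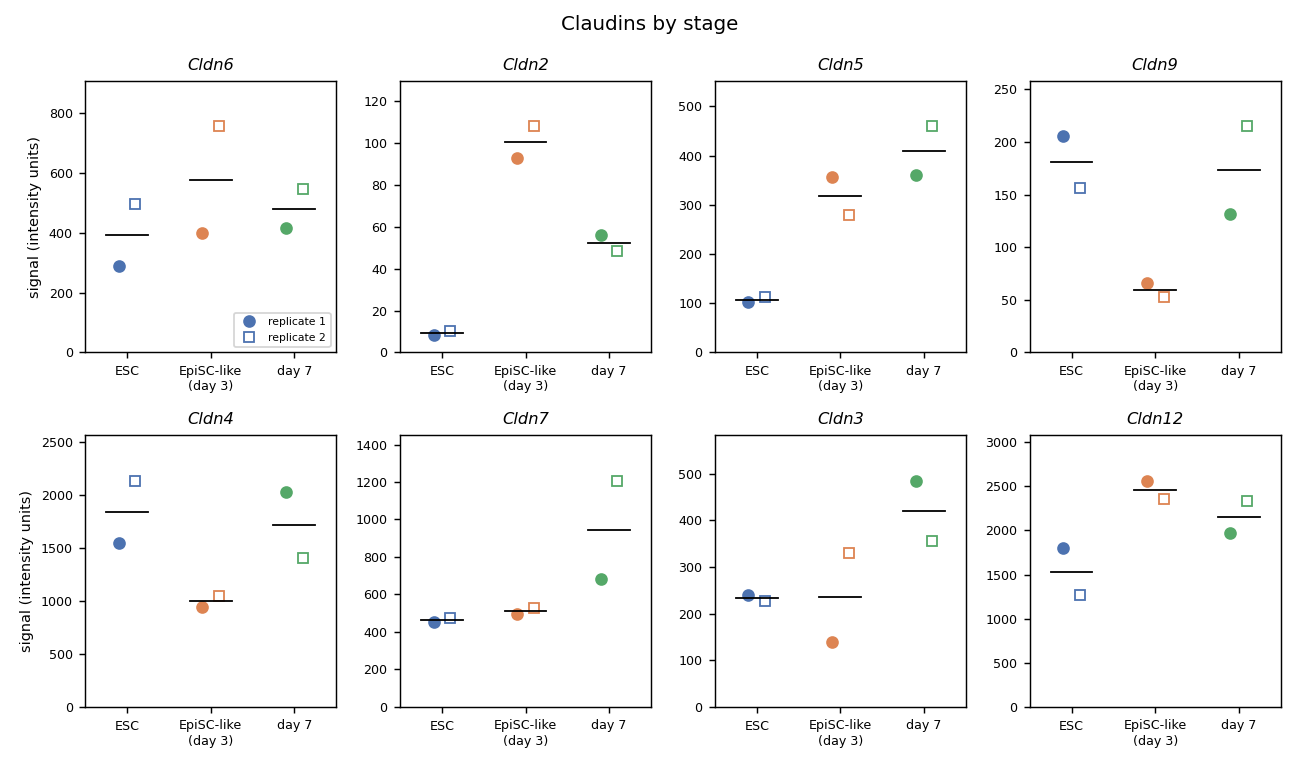
Signal intensity (linear axes from 0) of 8 claudins in ESC, EpiSC-like and day 7 cells, with a filled circle for replicate 1, an open square for replicate 2 and a bar at the mean of both. Cldn2 and Cldn5 are above both ESC arrays at day 3 and day 7, while Cldn9 and Cldn4 are lowest in EpiSC-like cells.

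The proteins that anchor these adhesion molecules were read from lists. None of the 14 adherens junction partners passed in any comparison, and their median differences were 0.024 at day 3 and 0.080 at day 7 relative to ESC. Ctnnb1 (beta-catenin), which binds the tails of classical cadherins, was at 17433 and 24240 in EpiSC-like cells against 15597 and 21588 in ESC. Of 17 measured tight junction partners of 18 listed, 1 rose and 1 fell in both comparisons with ESC, or 11.8% in each, where 1.9% and 1.04% of all genes passed. Mpdz, a multi-PDZ scaffold that binds claudin tails, was at 135 and 116 in ESC, 688 and 652 in EpiSC-like cells, and 451 and 428 in day 7 cells. It rose by 2.28 ± 0.22 at day 3 (adjusted p 0.0164) and by 1.69 ± 0.22 at day 7 (adjusted p 0.0375). Jam2, a junctional adhesion molecule, was at 3778 and 4095 in ESC, 533 and 348 in EpiSC-like cells, and 808 and 1194 in day 7 cells. It fell by 3.14 ± 0.31 at day 3 (adjusted p 0.0164) and by 1.98 ± 0.31 at day 7 (adjusted p 0.0495). Over the 17 genes the median difference was 0.53 for EpiSC-like minus ESC, with 15 of 17 above 0, and 0.23 for day 7 minus ESC, with 12 of 17 above 0. Of all 18194 genes, 9524 and 9334 were above 0 in these comparisons, with medians of 0.025 and 0.015. Tjp1 (ZO-1), the scaffold beneath claudins, and occludin were among them, with EpiSC-like minus ESC differences of 0.76 (adjusted p 0.263) and 1.13 (adjusted p 0.107).

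None of the 9 measured desmosome genes of 10 listed passed. Dsg2, the desmosomal cadherin of simple epithelia and stem cells, came nearest, at 1570 and 1021 in EpiSC-like cells against 3376 and 3604 in ESC, a difference of -1.45 ± 0.28 (adjusted p 0.0605). Of the wider cadherin superfamily, the Fat, Celsr, Dchs, calsyntenin and related genes, 17 of 18 were measured and none passed; the lowest adjusted p was 0.0682, in day 7 minus ESC. Markers of cell state were read for the labels themselves. Among naive ESC genes, 3 of 5 fell in EpiSC-like cells relative to ESC (0.583% of all genes). Among formative and primed epiblast genes, 2 of 4 rose (1.31% of all genes), with Fgf5 at 1009 and 1243 in EpiSC-like cells against 26.2 and 25.9 in ESC. At day 7 relative to ESC, 0 of the 5 naive genes passed and 1 of the 4 epiblast genes rose (0.753% of all genes). All 5 naive genes were higher on both day 7 arrays than on both EpiSC-like arrays (21.3% of all genes), and none passed there. Pou5f1, whose reporter was sorted in every group, did not pass in any comparison.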

How the data were processed

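RNA of 6 sorted samples was hybridised to Affymetrix arrays, 1 array per sample. The authors deposited a linear intensity for each probe set. Affymetrix Expression Console (version 1) is named in the submitters' processing notes, but its algorithm and role are not given in the sources used here. With 2% of probe sets removed at each end, the mean intensity was 500.0 on every array, controls included, so the authors had scaled the arrays before deposition. The number of arrays limits the precision of every value. Background correction, scanner files, detection calls and scan dates were not used here.

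Of 45101 probe sets, 64 controls were left out. By the platform annotation 34945 probe sets belong to a single gene and 932 to several. RefSeq's table of GRCm38.p6 held 34741 of the single-gene probe sets, with 0 changes of symbol. The probe set with the highest mean log2(signal + 16) over 6 arrays stood for each of 18194 genes.

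A model with 3 group means, no block and 3 residual degrees of freedom was fitted in limma (version 3.58.1, R 4.3.3; lmFit and eBayes), and p-values were adjusted by Benjamini-Hochberg over all genes (two-sided, threshold 0.05). The fit was tested on simulated data. Named genes are Cdh1, Cdh2 and Cldn6, every member that passed, in each comparison up to 6 members with the largest rise and 6 with the largest fall among those whose higher group mean reached the median of all values, and the 3 of each family with the highest mean. The members, the lists and the tests were chosen with earlier results of these data known. Each comparison was repeated under 15 alternative settings of pseudocount, filter, scaling, block, probe set choice and arrays. Promoter sequences are those of RefSeq, GRCm38.p6.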

Additional observations from a re-analysis of the deposited data

Results flagged for a closer look

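The 6 probe sets that each list several alpha protocadherin genes entered no test, and 2 of them had more signal on all 4 arrays from aggregates than on either ESC array. The first was at 10.7 and 8.81 in ESC, 68.1 and 44.8 in EpiSC-like cells, and 57.8 and 119 in day 7 cells, so its lowest value in aggregates was 44.8. The other was at 2.42 and 7.79 in ESC, 48.7 and 31.7 in EpiSC-like cells, and 31.9 and 41.0 in day 7 cells, with 31.7 as its lowest value in aggregates. The other 4 such probe sets did not have this order. No single gene can be named from these probe sets, and these differences were not tested.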

How the results depend on the processing

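The count of the 76 genes that passed depended on the settings, while all 8 called differences kept their direction in every setting that tested them. For EpiSC-like minus ESC the count was 5, and it became 0 with a pseudocount of 1, 2 among the 10 members at or above the median of mean signal (Pcdh8 and Cldn5), 3 with quantile normalization, 3 with the mean of all probe sets per gene and 0 with only the 4 arrays compared. For day 7 minus ESC the count was 3, and it became 0 with a pseudocount of 1, with arrays centred on their medians, with quantile normalization and with only the 4 arrays compared. For day 7 minus EpiSC-like the count of 0 became 1, Cdh10, with a pseudocount of 64 and with genes at or above the 25th percentile. Leaving out 1 array at a time gave 0 to 1 for EpiSC-like minus ESC, 0 to 0 for day 7 minus ESC and 0 to 0 for day 7 minus EpiSC-like; these fits have fewer samples. With the replicate block 0 of the 76 genes passed in each comparison (lowest adjusted p 0.0510 for EpiSC-like minus ESC and 0.0744 for day 7 minus ESC); the correlation of same-numbered arrays' deviations over genes was 0.28, 0.08 and 0.10 for the 3 pairs of groups, and the labels do not tie the numbers to a shared culture or batch, although the hybridization controls split the arrays by number. Over all genes, 345 passed for EpiSC-like minus ESC and 189 for day 7 minus ESC; with a pseudocount of 1 none did (2617 and 2945 at an unadjusted p under 0.05), nor under the block (3369 and 3920), and with a pseudocount of 64 the counts were 449 higher and 223 lower and 471 higher and 208 lower. Centring the arrays moved the median of all genes to -0.13 and -0.20, and the calls to 184 higher and 149 lower and to 93 higher and 82 lower, against 239 and 106 and 137 and 52 as deposited; the cause was not tested. Pcdh8 passed for EpiSC-like minus ESC in 7 of 15 settings and Cldn5 for day 7 minus ESC in 4 of 15. With detection calls not used here, 63 of the 76 genes lay under the median of all values and their change on this scale is understated. Some differences that did not pass changed sign. With arrays centred these were Cdh1 (-0.016, -0.074 and -0.058 in the 3 comparisons), Cldn7 for EpiSC-like minus ESC (-0.010) and Cdh3 for day 7 minus ESC (-0.080). With quantile normalization they were Cdh3 for day 7 minus ESC (-0.049) and Cdh1 for day 7 minus EpiSC-like (-0.029). With the mean of all probe sets they were Cldn3 (0.042) and Pcdh9 (0.028) for EpiSC-like minus ESC and Cldn9 (0.32) for day 7 minus ESC. Leaving out 1 array moved EpiSC-like minus ESC between -0.0053 and 0.27 for Cdh1, -0.68 and 0.48 for Cldn3, and -0.46 and 0.00080 for Pcdh9. It moved day 7 minus ESC between -0.0033 and 0.28 for Cdh1, -0.0068 and 0.27 for Cdh3, -0.37 and 0.15 for Cldn4, -0.061 and 0.69 for Cldn6, and -0.41 and 0.24 for Cldn9. It moved day 7 minus EpiSC-like between -0.14 and 0.14 for Cdh1, -0.60 and 0.30 for Cdh2, and -0.65 and 0.25 for Cldn6.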
